A study of Danio rerio with 9 samples.

Results

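Clone-named protein-coding genes of the long arm of zebrafish chromosome 4 were followed across ventricles of 3 genotypes. Members were the protein-coding genes of the deposited table that start beyond 28 Mb on chromosome 4 (GRCz11), that carry a name beginning with si:, zgc: or znf or holding a dot, and that reached at least 10 counts in 3 or more of the 9 libraries. Of the 30628 genes in the table, 633 met this rule: 368 had si: names, 140 had znf names, 86 had another name with a dot, and 39 had zgc: names. A further 205 genes of the arm had such a name and position but stayed below the count minimum, 13 of them at 0 in every library, so 633 of 838 eligible genes are described. No member lacked a name.

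The long arm of chromosome 4 is an unusual part of the zebrafish genome. It replicates late, is rich in repeats and heterochromatin, holds few genes with clear counterparts in other vertebrates, and carries large local expansions of gene families, among them C2H2 zinc finger genes and NLR-type immune receptor genes, as well as 5S ribosomal RNA genes. In natural strains it is also linked to sex. Proteins of the C2H2 zinc finger family bind DNA through repeated fingers, and in mammals many members of their expanded branches silence transposable elements. Except for znf, the name prefixes record how a gene model was found rather than what it does. The prefix si: marks models annotated on sequenced genomic clones, and zgc: marks models found through the Zebrafish Gene Collection of cDNA clones. Dotted names join a clone accession with a running number, as in CT583728.27, or a family symbol with one, as in *ms4a17a.3*. Roles are given below only where they are known, which is not the case for most of these genes.

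The 9 libraries fell into 3 groups of 3. *Tg(cmlc2:tfeb)* fish carry a transgene that expresses *tfeb*, the regulator of lysosome and autophagy genes, under the *cmlc2* promoter, which is active in cardiomyocytes and not in the other cells of a ventricle. *mtor* xu015/+ fish are heterozygous for a mutant allele of *mtor*, the gene of the mTOR kinase. A single group of 3 WT libraries served as the control for either line. The paper describes the WT fish as siblings, but of which line these were siblings is not given. Genotype and family background therefore cannot be told apart. Every library pooled the ventricles of 5 adults, so the spread between individual fish cannot be seen. The methods give an age of 6 months for every genotype, whereas the WT columns of the table carry a tag of 9 months, so age and genotype cannot be told apart in comparisons with WT.

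Estimated counts per library summed to 35440229 to 45273885. *tfeb* had 8783 to 26430 normalized counts in *Tg(cmlc2:tfeb)* libraries, 1586 to 2126 in *mtor* xu015/+ libraries and 1654 to 2169 in WT libraries. *mtor* had 1871 to 1904 in *Tg(cmlc2:tfeb)* libraries, below every other library, 5389 to 7294 in the libraries labelled *mtor* xu015/+ and 2522 to 6601 in WT libraries, so its level did not check the *mtor* xu015/+ label. Cardiomyocyte markers (7 of 8 found, none at 0) summed to 1852000 to 2242000 in *Tg(cmlc2:tfeb)* libraries, 2574000 to 2797000 in *mtor* xu015/+ libraries and 2575000 to 2744000 in WT libraries, with 2 of the 7 called lower, and all 8 proliferation markers were called higher, with sums of 5117 to 7994 in *Tg(cmlc2:tfeb)* libraries, 1366 to 1474 in *mtor* xu015/+ libraries and 1397 to 1544 in WT libraries. Erythrocyte markers summed to 152600 to 194900 in *Tg(cmlc2:tfeb)* libraries, 66680 to 86960 in *mtor* xu015/+ libraries and 104100 to 121000 in WT libraries, with 3 of 5 called higher against WT. Fibroblast markers summed to 15230 to 19640 in *Tg(cmlc2:tfeb)* libraries, 10730 to 12150 in *mtor* xu015/+ libraries and 11970 to 12650 in WT libraries, with 2 of 5 called higher, and epicardial markers to 1987 to 2422 in *Tg(cmlc2:tfeb)* libraries, 1527 to 2023 in *mtor* xu015/+ libraries and 1467 to 1645 in WT libraries, with 1 of 4 called higher. Of the macrophage markers 1 of 5 was called lower and of the neutrophil markers 1 of 4 higher, with sums that overlapped between *Tg(cmlc2:tfeb)* and WT, whereas lymphocyte and gonad markers summed to under 90 in every library. In pooled tissue, fewer cells of a type and less RNA per cell cannot be told apart. The part of these shifts in the results below was not tested.

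The 4 name classes made up nearly the whole arm. Of its 888 protein-coding genes, 94.4% belonged to the 4 name classes, against 19.4% of those on chromosome 4 up to 28 Mb and 25.8% of those on the rest of the genome. Zinc finger names were concentrated there as well: 171 (48.6%) of the 352 placed protein-coding genes with a znf name lay on the arm. Over the 4 classes, genes reached the count minimum more often on the arm (75.5%) than elsewhere (58.3%). The numbers were 368 of 478 against 1772 of 3120 for si:, and 39 of 46 against 501 of 774 for zgc: names. For other dotted names they were 86 of 143 against 1245 of 2256. The znf names went the other way, with 140 of 171 on the arm against 171 of 181 elsewhere. Members were lower in level, with a median mean normalized count of 48.6. It was 86.3 for the 3689 genes of the same classes elsewhere that met the same count rule. For other dotted names the medians were close, at 67.3 on the arm against 68.3 elsewhere, and the si:, zgc: and znf medians were further apart. A normalized count here is a count put on a common library size after TMM scaling, with no correction for gene length made here, and whether the deposited values already carry one was not settled. The median member spanned 13.4 kb, against 9.1 kb elsewhere. Replicates scattered more among members: the median coefficient of variation within groups was 24.9%, against 18.3% elsewhere. At matched level the gap was smaller. It was 34.8% against 34.5% under 30 normalized counts and 23.1% against 19.8% between 30 and 100. Between 100 and 300 it was 15.3% against 13.2%, and above 300 it was 15.3% against 10.1%.

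Many members could not be told apart by name. The 633 members carried 546 distinct names, and 146 members shared a name with at least 1 other. The name *si:dkey-16p6.1* alone stood on 19 members between 31.7 and 76.4 Mb. A table of Ensembl gene names held 553 of the members and gave 130 of them a different symbol. In 4 sets, 6 members had exactly the values of another gene in all 9 libraries (0.948% of members, against 0.434% of the same classes elsewhere), and the deposited counts of such near-identical genes are uncertain, since how shared reads were assigned is not given in the sources used here.

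In each library the members together held a small share of all counts. That share was 0.462%, 0.418% and 0.623% in *Tg(cmlc2:tfeb)* libraries, 0.445%, 0.308% and 0.386% in *mtor* xu015/+ libraries, and 0.349%, 0.436% and 0.419% in WT libraries. The groups overlapped, and the third *Tg(cmlc2:tfeb)* library had the highest share. Without the highest member, *CT583728.27*, the shares were 0.314%, 0.315% and 0.410% in *Tg(cmlc2:tfeb)* libraries, 0.406%, 0.261% and 0.342% in *mtor* xu015/+ libraries, and 0.294%, 0.386% and 0.369% in WT libraries. The 5 highest members took 47.6% of all member counts, and 444 members averaged under 100 normalized counts.

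Against WT, the tfeb transgene went with changes in both directions among the members. Of 629 members tested, 60 were called higher and 56 lower in *Tg(cmlc2:tfeb)* ventricles, where a call needed a Benjamini-Hochberg adjusted p under 0.05 over all 21216 genes tested with the edgeR quasi-likelihood test and 1.5-fold or more between the groups. The 116 calls are 18.4% of the members, against 14.9% of all genes tested and 17.4% of the 3674 genes of the same name classes tested elsewhere. By direction, 9.54% of members were called higher, against 7.41% of all genes, and 8.90% lower, against 7.49% of all genes. An unadjusted p under 0.05 was found for 228 members (36.2%; 35.7% of all genes), and in 257 members (40.9%; 42.0% of all genes) the 3 libraries of one group lay entirely above those of the other. The share of members called thus lay somewhat above that of all genes and near that of the same name classes elsewhere. By unadjusted p and by overlap the member shares lay near those of all genes. These differences were not tested. With 3 libraries against 3, an exact two-sided permutation test of a single gene cannot go below p = 0.1.

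The median log2 fold change of the members was -0.034, against -0.00063 over all genes. The median absolute log2 fold change was 0.46, against 0.35 in the same classes elsewhere and 0.28 over all genes, and the gap to the same classes was smaller at matched level. It was 0.677 for members averaging under 30 normalized counts, against 0.641 elsewhere, 0.393 against 0.367 between 30 and 100, 0.332 against 0.271 between 100 and 300, and 0.302 against 0.211 above 300. Among the called members, 44 were at least 2-fold higher and 38 at least 2-fold lower, of 629 tested. Over all genes, 1973 of 21216 were called at 2-fold or more in either direction. At 4-fold or more the counts were 16 higher and 5 lower, and at 8-fold or more 8 higher and 0 lower, by fitted fold changes that include members near 0 in one group. Some of these, such as *znf998*, *znf1023* and *si:dkey-199k11.6*, met the count minimum only through their *Tg(cmlc2:tfeb)* libraries. Shares over all genes were not counted at 4-fold or 8-fold, so the lean to higher calls is not given as a trait of the arm. With 1 library left out at a time, 41 to 51 members were called higher and 33 to 41 lower, with a median of -0.090 without the third *Tg(cmlc2:tfeb)* library and with the lower count at 37 without the second and 33 without the third WT library and at 36 without the second *Tg(cmlc2:tfeb)* library.

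Shares called were close to those elsewhere in 3 of the 4 name classes. They were 18.4% of 365 si: members and 17.6% of si: genes elsewhere, 15.4% of 39 zgc: members and 15.2% of zgc: genes elsewhere, and 20.9% of 86 other dotted members and 19.3% of such genes elsewhere. Among znf names, 25 of 139 members (18.0%) were called, against 13 of 170 (7.65%) elsewhere. The znf members were also far lower in level, with a median mean normalized count of 34.0, against 135 elsewhere. Their median scatter between replicates was 24.3%, against 13.6%, but at matched level the difference went both ways. It was 27.3% (58 members) against 39.7% (14 genes) under 30 counts, and 22.4% (65) against 16.5% (60) between 30 and 100. Between 100 and 300 it was 15.3% (13) against 13% (38), and above 300 it was 5.9% (3) against 7.89% (58). The bins in which znf members scattered less thus rest on few genes on 1 side. No test of the difference in shares called between the arm and the rest of the genome was run.

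**Figure D1:**
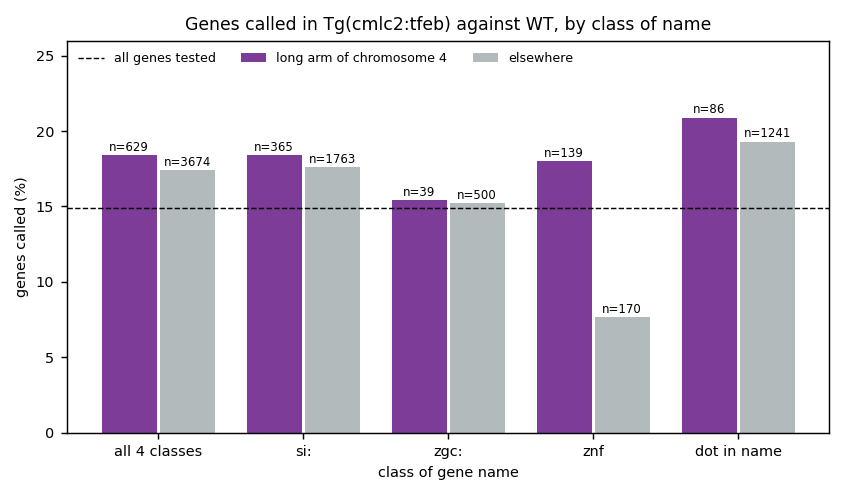
Percent of tested genes called in *Tg(cmlc2:tfeb)* against WT ventricles (y axis) by class of gene name (x axis), for the long arm of chromosome 4 (purple bars) and for the same classes elsewhere (grey bars), with the number tested above each bar and the share over all 21216 genes as a dashed line at 14.9%. The bars of a pair are close in every class but znf, at 18.0% on the arm and 7.65% elsewhere.

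The share of members called varied little with level. It was 16.8% of the 220 members averaging under 30 normalized counts, 20% of the 220 between 30 and 100, 17.4% of the 121 between 100 and 300, and 20.6% of the 68 above 300. In the same classes elsewhere these shares were 17.0%, 18.8%, 19.5% and 14.3%. Among znf members under 30 counts, 10 of 58 were called, against 0 of 14 elsewhere, and between 30 and 100 counts 14 of 65 were called, against 7 of 60 elsewhere. Most znf genes elsewhere were higher than that, and 58 of the 170 averaged over 300 counts, against 3 of the 139 on the arm.

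The members with the strongest evidence for a higher level came from several places on the arm. *CT990567.1* (chr4:61995745-61997189) had normalized counts of 702, 394 and 723 in *Tg(cmlc2:tfeb)* libraries, 35.4, 39.9 and 15.02 in *mtor* xu015/+ libraries, and 23.03, 36.7 and 37.1 in WT libraries. All 3 *Tg(cmlc2:tfeb)* libraries stood far above every other library, and the log2 fold change over WT was 4.23 ± 0.36 (SE), with adjusted p = 0.000131. *BX571813.2* (chr4:65160450-65323874) had 129.9, 105 and 202 in *Tg(cmlc2:tfeb)* libraries, 14.4, 10.2 and 15.02 in *mtor* xu015/+ libraries, and 10.5, 3.44 and 14.2 in WT libraries (log2 fold change 3.92 ± 0.42, adjusted p = 0.000378). *BX649556.2* (chr4:66839620-66843599) had 100.02, 223 and 225 in *Tg(cmlc2:tfeb)* libraries, 27.6, 11.1 and 14.1 in *mtor* xu015/+ libraries, and 12.6, 8.04 and 25.1 in WT libraries (log2 fold change 3.57 ± 0.49, adjusted p = 0.00122). In these 3 genes the *mtor* xu015/+ and WT libraries overlapped, and no *Tg(cmlc2:tfeb)* library came near them.

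Others rose over a higher WT level. *si:dkey-237g15.2* (chr4:68475654-68497731) had 1066, 1019.8 and 820.4 in *Tg(cmlc2:tfeb)* libraries, 214, 274 and 197 in *mtor* xu015/+ libraries, and 203, 280.1 and 181 in WT libraries, a log2 fold change of 2.13 ± 0.19 (SE) over WT with adjusted p = 0.000143. Its groups were well separated, and the *mtor* xu015/+ and WT libraries overlapped each other. The copy of *si:ch211-171l17.14* at chr4:53034573-53072320 had 329, 261 and 304 in *Tg(cmlc2:tfeb)* libraries, 92.8, 108 and 142 in *mtor* xu015/+ libraries, and 122, 82.7 and 87.2 in WT libraries (log2 fold change 1.61 ± 0.20, adjusted p = 0.00077), and *LO018181.1* (chr4:73973242-73983880) had 626, 516 and 646 in *Tg(cmlc2:tfeb)* libraries, 196, 242 and 290.1 in *mtor* xu015/+ libraries, and 270.1, 313 and 261 in WT libraries (log2 fold change 1.08 ± 0.15, adjusted p = 0.00135). Each kept its call with any *Tg(cmlc2:tfeb)* or WT library left out. So did all 16 members chosen as the 8 with the smallest p in each direction, among called members whose groups did not overlap.

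The leading losses came from several places on the arm, some of them close together, as *si:dkey-54j5.2* and the *znf1137* copy described below. *CR759843.2* (chr4:37992753-37997390) had 97.5, 136 and 62.8 in *Tg(cmlc2:tfeb)* libraries, 239.8, 556 and 343 in *mtor* xu015/+ libraries, and 416, 599 and 338 in WT libraries, a log2 fold change of -2.18 ± 0.37 (SE) with adjusted p = 0.00345. *si:dkey-54j5.2* (chr4:43048527-43070566) had 7.69, 2.61 and 5.60 in *Tg(cmlc2:tfeb)* libraries, 24.3, 29.7 and 24.4 in *mtor* xu015/+ libraries, and 24.1, 35.6 and 28.4 in WT libraries (log2 fold change -2.44 ± 0.40, adjusted p = 0.00295). The *mtor* xu015/+ libraries overlapped the WT libraries in both genes. *si:dkey-51d8.9* (chr4:45148652-45156379) had 39.3, 86.2 and 57.2 in *Tg(cmlc2:tfeb)* libraries, 249.7, 224 and 238 in *mtor* xu015/+ libraries, and 224, 179 and 232 in WT libraries (log2 fold change -1.80 ± 0.24, adjusted p = 0.00117), and *BX649516.4* (chr4:45181362-45189530), close by, had 22.2, 40.9 and 34.7 in *Tg(cmlc2:tfeb)* libraries, 106, 83.6 and 109.9 in *mtor* xu015/+ libraries, and 91.1, 84.96 and 98.1 in WT libraries (log2 fold change -1.49 ± 0.24, adjusted p = 0.00261). Both genes of this pair were lower in every *Tg(cmlc2:tfeb)* library than in any other library, and their *mtor* xu015/+ and WT libraries overlapped.

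Other losses followed. *CR749167.2* had 76.1, 83.6 and 69.5 in *Tg(cmlc2:tfeb)* libraries, 144, 135 and 117 in *mtor* xu015/+ libraries, and 199.9, 175 and 149 in WT libraries (log2 fold change -1.19 ± 0.16, adjusted p = 0.001). Here the *mtor* xu015/+ libraries lay between the other groups. *si:ch211-209j12.1* had 115, 158 and 132 in *Tg(cmlc2:tfeb)* libraries, 333, 273 and 240.4 in *mtor* xu015/+ libraries, and 295, 263 and 299 in WT libraries (log2 fold change -1.08 ± 0.16, adjusted p = 0.00166). *si:dkey-28i19.3* had 17.1, 27.00 and 22.4 in *Tg(cmlc2:tfeb)* libraries, 72.9, 87.3 and 69.5 in *mtor* xu015/+ libraries, and 51.3, 86.1 and 78.5 in WT libraries (log2 fold change -1.69 ± 0.27, adjusted p = 0.00251). The *Tg(cmlc2:tfeb)* libraries of both genes lay below all others, with no overlap.

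**Figure D2:**
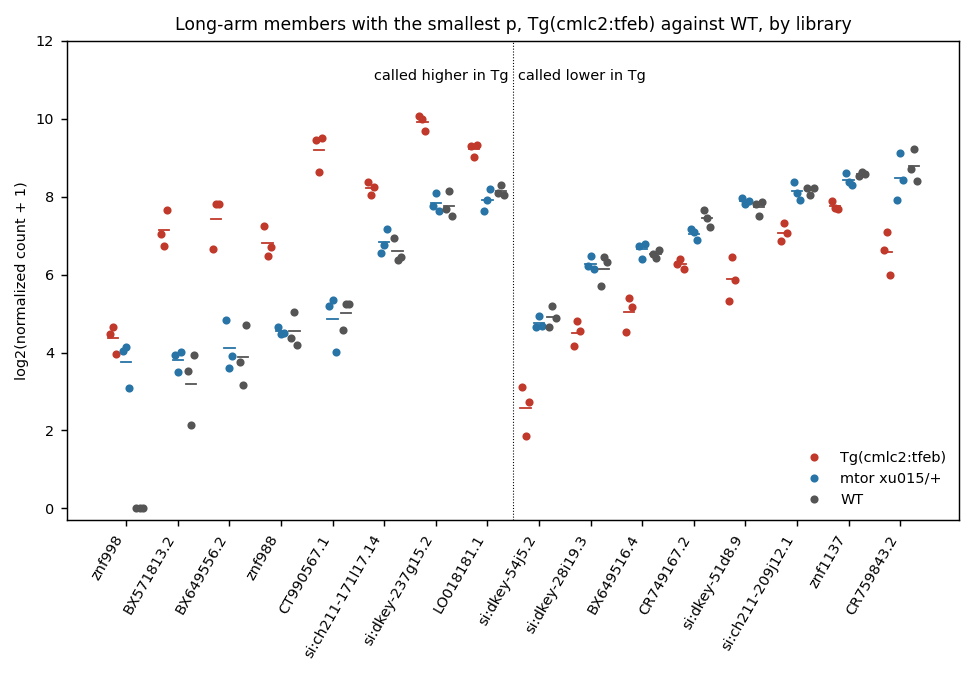
Normalized counts of the 16 members with the smallest p in either direction, on a log2(count + 1) scale (y axis), by member (x axis), with 1 point per library, a line at the mean of each group of 3, and *Tg(cmlc2:tfeb)* in red, *mtor* xu015/+ in blue and WT in grey. Only called members whose *Tg(cmlc2:tfeb)* and WT libraries did not overlap were eligible, so the red and grey points lie apart in all 16 by choice. *znf998* is the member at 0 in all 3 WT libraries.

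A few members were near silent in one group and present in another. They were picked for this pattern, so their folds and p-values describe it and are not separate support. *znf998*, *znf1023*, *si:dkey-199k11.6* and *CT027801.1* would not have met the count minimum without their *Tg(cmlc2:tfeb)* libraries. The share of all genes with such a pattern was not counted. The fold of a gene at 0 in a whole group is a lower bound, set against a floor of 3 counts per library, and the others are ratios of summed counts with an exact 95% interval that covers counting error only. *znf998* (chr4:55313082-55322519) had 21.4, 24.4 and 14.6 normalized counts in *Tg(cmlc2:tfeb)* libraries and 15.5, 16.7 and 7.51 in *mtor* xu015/+ libraries, and 0 in all 3 WT libraries, that is at least 6.12-fold higher than WT in *Tg(cmlc2:tfeb)* (adjusted p = 0.00158) and at least 4.03-fold higher in *mtor* xu015/+ (adjusted p = 0.177, not called). *znf1023* at chr4:48717758-48727718 had 53.00, 28.7 and 20.2 in *Tg(cmlc2:tfeb)* libraries, 3.32, 1.86 and 0 in *mtor* xu015/+ libraries, and 0, 0 and 2.18 in WT libraries, 48.3 times the WT level (13.1 to 404) and 21.4 times that of *mtor* xu015/+ (8.92 to 67.3), with edgeR adjusted p = 0.00434 and 0.00572.

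*si:dkey-199k11.6* (chr4:40018440-40021496) was likewise close to silent outside the transgenic line, with 47.02, 19.2 and 36.98 in *Tg(cmlc2:tfeb)* libraries, 0, 3.72 and 2.82 in *mtor* xu015/+ libraries, and 0, 2.30 and 2.18 in WT libraries, 23.5 times the WT level (8.92 to 87.8, adjusted p = 0.005). The opposite was seen for *ms4a17a.12*, of a family of membrane proteins with several transmembrane segments, which had 2.56, 2.61 and 3.36 in *Tg(cmlc2:tfeb)* libraries, 16.6, 11.1 and 26.3 in *mtor* xu015/+ libraries, and 20.9, 25.3 and 14.2 in WT libraries, 0.14 times the WT level (0.0608 to 0.285, adjusted p = 0.00383) and 0.155 times that of *mtor* xu015/+ (0.0675 to 0.317, adjusted p = 0.00441). *CT027801.1* had 22.2, 28.7 and 28.02 in *Tg(cmlc2:tfeb)* libraries, 0, 2.79 and 1.88 in *mtor* xu015/+ libraries, and 0, 9.19 and 11.99 in WT libraries. Its level in *Tg(cmlc2:tfeb)* was 15.9 times that in *mtor* xu015/+ ventricles (6.57 to 50.4, adjusted p = 0.015), a call that was lost without the third *mtor* xu015/+ library (adjusted p = 0.0506), and was not called against WT (adjusted p = 0.114). All 5 genes stayed under 60 normalized counts in every library.

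The most abundant members lay in a single short stretch. Genes named after clone CT583728, which all start near 55.8 Mb, supplied 4 of the 5 highest members, with *BX548011.3* (chr4:68562464-68565244) as the other. *CT583728.27* (chr4:55813426-55829342) was the highest, with normalized counts of 55516, 38834 and 84295 in *Tg(cmlc2:tfeb)* libraries, 15952, 19529 and 18161 in *mtor* xu015/+ libraries, and 23556, 20887 and 19965 in WT libraries. It rose in *Tg(cmlc2:tfeb)* ventricles by 1.47 ± 0.23 (SE) on the log2 scale over WT (adjusted p = 0.00261) and by 1.74 ± 0.24 over *mtor* xu015/+ (adjusted p = 0.00105), and all 3 *Tg(cmlc2:tfeb)* libraries lay above the rest, although they ranged widely among themselves.

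Its neighbours were not called. *CT583728.24* had 10213, 12247 and 23312 in *Tg(cmlc2:tfeb)* libraries, 16620.00, 8370.1 and 13493 in *mtor* xu015/+ libraries, and 11599, 13446 and 19064 in WT libraries, with overlapping groups and adjusted p = 0.929. *CT583728.25* and *CT583728.14* held identical values in every library, 2243, 2849 and 5967 in *Tg(cmlc2:tfeb)*, 18770.4, 2823 and 10762 in *mtor* xu015/+ and 6783, 18138 and 11718 in WT libraries, and count as a single measurement. Their log2 fold change was -1.73 ± 0.64 (SE) with adjusted p = 0.0823, which is not a call, and the second *mtor* xu015/+ library lay as low as the *Tg(cmlc2:tfeb)* libraries. *BX548011.3* had 18367, 15411 and 31078 in *Tg(cmlc2:tfeb)* libraries, 16685, 8207 and 13309.7 in *mtor* xu015/+ libraries, and 12631, 19815 and 15810.4 in WT libraries, again with overlap (adjusted p = 0.358).

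**Figure D3:**
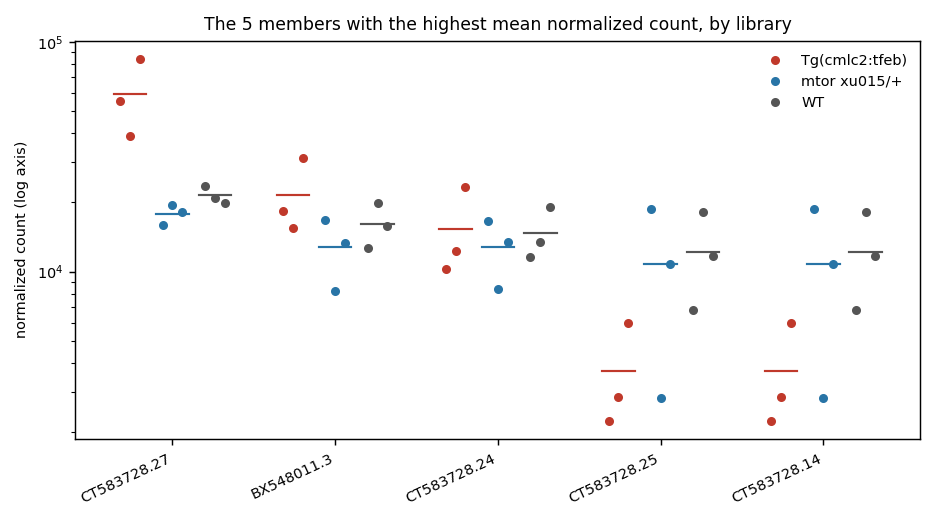
Normalized counts on a log axis (y axis) of the 5 members with the highest mean (x axis), with 1 point per library, a line at the mean of each group of 3, and *Tg(cmlc2:tfeb)* in red, *mtor* xu015/+ in blue and WT in grey. *CT583728.27* separates the red points from the others, whereas *CT583728.24* and *BX548011.3* do not, and *CT583728.25* and *CT583728.14* show the same points.

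The 140 znf members summed to 9651, 9511 and 9497 normalized counts in *Tg(cmlc2:tfeb)* libraries, 8465, 8482 and 8438 in *mtor* xu015/+ libraries, and 9128, 9081 and 9318 in WT libraries. The 3 groups did not overlap in this sum, although they differed by little, and no test was run on it. The znf genes elsewhere that met the same count rule also summed highest in *Tg(cmlc2:tfeb)* libraries, to 88430, 87600 and 88040, against 79780, 84060 and 73540 in *mtor* xu015/+ libraries and 81520, 84760 and 85320 in WT libraries, so a higher sum in *Tg(cmlc2:tfeb)* ventricles was not limited to the arm. The median log2 fold change of the znf members was 0.08 over WT and 0.25 over *mtor* xu015/+ in *Tg(cmlc2:tfeb)* ventricles, and -0.14 for *mtor* xu015/+ over WT. Called members split evenly, with 12 higher and 13 lower against WT, and 24 of these 25 averaged under 100 normalized counts.

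Among the higher znf members, the copy of *znf977* at chr4:39055027-39069529 had 228, 169 and 134 in *Tg(cmlc2:tfeb)* libraries, 0, 12.1 and 7.51 in *mtor* xu015/+ libraries, and 8.37, 14.9 and 17.4 in WT libraries, a log2 fold change of 3.70 ± 0.54 (SE) over WT with adjusted p = 0.00167. *znf988* (chr4:64857820-64871624) had 151, 88.8 and 104 in *Tg(cmlc2:tfeb)* libraries, 24.3, 21.4 and 21.6 in *mtor* xu015/+ libraries, and 19.9, 32.1 and 17.4 in WT libraries (log2 fold change 2.31 ± 0.29, adjusted p = 0.000824). *znf985* (chr4:34860183-34882311) had 57.3, 37.4 and 26.9 in *Tg(cmlc2:tfeb)* libraries, 5.53, 10.2 and 9.39 in *mtor* xu015/+ libraries, and 5.23, 3.44 and 7.63 in WT libraries (log2 fold change 2.87 ± 0.45, adjusted p = 0.0023). These 3 were high in every *Tg(cmlc2:tfeb)* library and low in all others. *znf985* would not have met the count minimum without its *Tg(cmlc2:tfeb)* libraries, so its fold and p describe the pattern and are not separate support. *znf1052*, *znf1069*, *znf1090*, *znf1036*, *znf1082* and *znf1140* rose by smaller amounts or from lower levels, with log2 fold changes from 0.99 to 2.46.

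Among the lower znf members, the copy of *znf1137* at chr4:43074375-43091498 had 237, 209 and 205 in *Tg(cmlc2:tfeb)* libraries, 390.1, 332 and 314 in *mtor* xu015/+ libraries, and 368, 395 and 383 in WT libraries, the highest of the called znf members, and fell by 0.81 on the log2 scale (SE 0.11, adjusted p = 0.00103). *znf996* (chr4:31450683-31501083) had 5.98, 11.3 and 6.72 in *Tg(cmlc2:tfeb)* libraries, 38.7, 43.7 and 61.03 in *mtor* xu015/+ libraries, and 34.5, 24.1 and 34.9 in WT libraries (log2 fold change -1.94 ± 0.35, adjusted p = 0.00494). *znf1092* had 12.8, 8.71 and 11.2 in *Tg(cmlc2:tfeb)* libraries, 29.8, 33.4 and 19.7 in *mtor* xu015/+ libraries, and 26.2, 34.4 and 40.3 in WT libraries (log2 fold change -1.61 ± 0.33, adjusted p = 0.00848). No *Tg(cmlc2:tfeb)* library of these 3 genes reached the lowest library of either other group.

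The znf calls differed in how firmly they stood. With each *Tg(cmlc2:tfeb)* and WT library left out in turn, 14 of the 25 calls held every time, 10 of the 12 higher and 4 of the 13 lower. The higher calls that were lost were *znf1026* (adjusted p up to 0.105) and *znf1140* (up to 0.0585, without the first or the third WT library). Among the lower ones, *znf1106*, *znf1049*, *znf1113*, *znf1122*, *znf974*, *znf1033* and the copy of *znf1023* at chr4:35993527-36004488 lost their call without at least 2 of the 6 libraries, with adjusted p up to 0.141, and *znf1025* and *znf1149* lost it whichever of the 6 libraries was left out (adjusted p up to 0.110 and 0.127). All of them kept their direction. The name *znf1023* thus stands on a gene called higher and on another called lower.

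**Figure D4:**
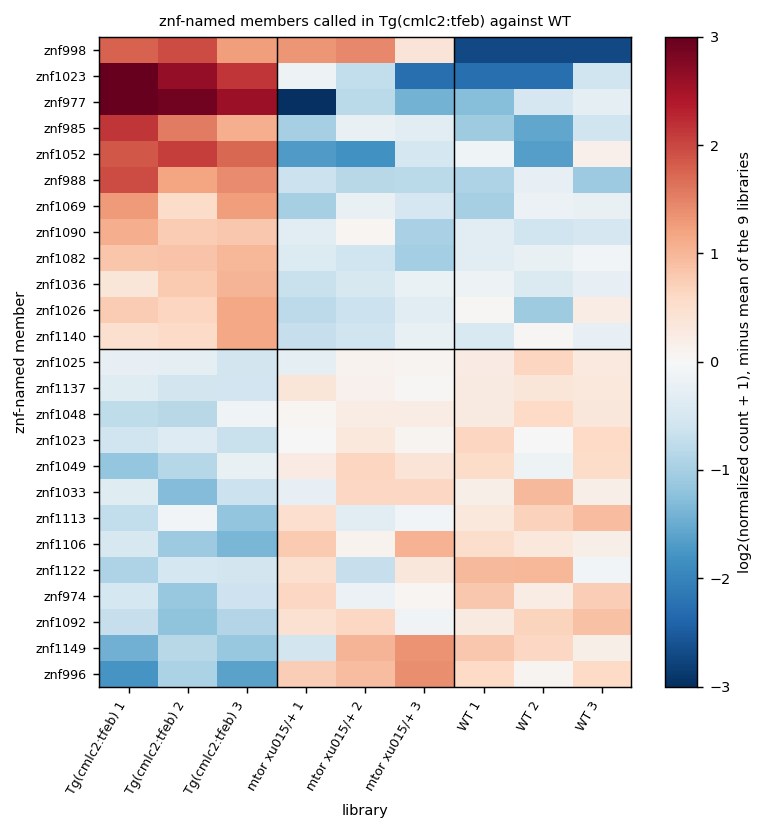
Level of the 25 znf-named members called in *Tg(cmlc2:tfeb)* against WT (rows, with the 12 called higher above the line) in the 9 libraries (columns, *Tg(cmlc2:tfeb)* left, *mtor* xu015/+ centre, WT right), as log2(normalized count + 1) minus the mean of the row, with the colour scale ending at -3 and 3. Every row was called against WT, so the left and right columns differ by choice. In some rows, such as *znf998*, the left and centre columns are close. *znf998* is at 0 in the 3 WT libraries, and the name *znf1023* occurs once above and once below the line.

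Genes that share a clone or family name had log2 fold changes of both signs in most groups. Of 52 clone or family groups with at least 3 tested members, 37 held both signs in *Tg(cmlc2:tfeb)* against WT, 8 only values above 0 and 7 only values below 0. The groups with a single sign had at most 4 tested members. Genes with identical values were counted separately here, as *AL935186.7* and *AL935186.9* in a group with only values above 0. Groups of other genes were not counted in this way, so the split is not given as a trait of these groups. The 21 members with names from clone si:dkey-16p6 lie between 31.7 and 76.4 Mb, and 1 was called higher and 3 lower in *Tg(cmlc2:tfeb)* against WT, with log2 fold changes from -1.88 to 0.79 and a median of -0.033. The copy of *si:dkey-16p6.1* at chr4:44713555-44759118 had 63.3, 61.8 and 70.6 in *Tg(cmlc2:tfeb)* libraries, 152, 107 and 109.9 in *mtor* xu015/+ libraries, and 121, 96.4 and 128 in WT libraries (log2 fold change -0.82 ± 0.19, adjusted p = 0.0143). That call was lost without the third WT or the second *Tg(cmlc2:tfeb)* library (adjusted p up to 0.0524), and the single higher call in this group was at the margin (adjusted p = 0.0499, and up to 0.148 with 1 library left out). Among 7 members named after clone si:dkey-51d8, 2 were called higher and 1 lower, and among 8 named after si:ch211-76m11, 0 were called higher and 1 lower. Groups with a single sign, picked after their values were seen, included si:dkey-14o6, whose 4 members had log2 fold changes of 0.75 to 1.43 with 1 called higher, and si:dkey-264f17, whose 3 members had 0.22 to 0.84 with 2 called higher. In the last group, *si:dkey-264f17.1* had 278, 259.5 and 260.01 in *Tg(cmlc2:tfeb)* libraries, 127, 149 and 187 in *mtor* xu015/+ libraries, and 148, 162 and 137 in WT libraries (log2 fold change 0.84 ± 0.15, adjusted p = 0.00416), and its *mtor* xu015/+ and WT libraries overlapped.

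The *ms4a17a* genes are a compact family, whose 10 members all start between 76.5 and 76.8 Mb. Of these, *ms4a17a.3* was called higher and *ms4a17a.8* and *ms4a17a.12* lower against WT. *ms4a17a.3* had 21.4, 19.2 and 25.8 in *Tg(cmlc2:tfeb)* libraries, 18.8, 12.1 and 21.6 in *mtor* xu015/+ libraries, and 7.33, 3.44 and 8.72 in WT libraries, a log2 fold change of 1.74 ± 0.41 (SE, adjusted p = 0.0163, and 0.0549 without the second WT library), and its *mtor* xu015/+ libraries overlapped the *Tg(cmlc2:tfeb)* libraries and lay above all WT libraries. *ms4a17a.8* had 2.56, 3.48 and 1.12 in *Tg(cmlc2:tfeb)* libraries, 6.63, 4.64 and 19.7 in *mtor* xu015/+ libraries, and 21.98, 11.5 and 10.9 in WT libraries (log2 fold change -2.53 ± 0.69, adjusted p = 0.0283), and lost its call without any of 5 of the 6 libraries, with adjusted p up to 0.0998. *ms4a17a.7*, named after its values were seen, had at most 3 counts in every WT library and more on average in both other groups, with 15.4, 13.9 and 8.97 in *Tg(cmlc2:tfeb)* libraries, 7.74, 1.86 and 16.9 in *mtor* xu015/+ libraries, and 3.14, 3.44 and 2.18 in WT libraries, 4.49 times the WT level in *Tg(cmlc2:tfeb)* (95% counting interval 2.08 to 11.1, adjusted p = 0.0635) and 3.04 times in *mtor* xu015/+ (1.34 to 7.74, adjusted p = 0.646), and it was called in neither. The family's most abundant gene, *ms4a17a.11*, picked after its values were seen, had 454, 403 and 369.8 in *Tg(cmlc2:tfeb)* libraries, 441, 384 and 447 in *mtor* xu015/+ libraries, and 342, 428 and 386 in WT libraries, with overlapping groups (adjusted p = 0.629).

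Called members were spread along the whole arm. In 2 Mb windows with at least 5 members, between 6.25% and 40% of the tested members were called against WT, all 25 windows held at least 1 call, and 19 held calls in both directions. The window with the highest share, 30 to 32 Mb, had 5 higher and 5 lower calls among 25 members, the window from 76 to 78 Mb had 4 higher and 6 lower among 58, and the window from 68 to 70 Mb had 5 higher and 4 lower among 34. Other windows, picked after their values were seen, leaned to 1 direction. From 42 to 44 Mb there were 0 higher and 4 lower calls, and from 44 to 46 Mb 1 higher and 5 lower. The median log2 fold changes there were -0.42 and -0.41. The other way, 54 to 56 Mb had 3 higher and 0 lower calls, and 64 to 66 Mb had 4 higher and 1 lower, with medians of 0.0058 and 0.28. Of 632 pairs of members next to each other on the arm, 21 had a call in both members, and 13 of these pairs (61.9%) moved in the same direction. Neighbouring pairs of other genes were not counted, so these numbers are not given as a trait of the arm. Neighbouring gene models can share reads or overlap, which was not examined.

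The windows with the most calls each held calls in opposite directions, though not always in neighbouring genes. In the window from 30 to 32 Mb, 1 of the genes named *si:dkey-16p19.5* had 60.7, 72.3 and 88.5 in *Tg(cmlc2:tfeb)* libraries, 33.2, 48.3 and 38.5 in *mtor* xu015/+ libraries, and 15.7, 39.04 and 21.8 in WT libraries and was called higher (log2 fold change 1.53 ± 0.33, adjusted p = 0.0111), whereas *si:dkey-19c16.12*, in the same window, had 46.2, 56.6 and 61.6 in *Tg(cmlc2:tfeb)* libraries, 66.3, 90.1 and 68.5 in *mtor* xu015/+ libraries, and 95.3, 126 and 99.2 in WT libraries and was called lower (log2 fold change -0.97 ± 0.20, adjusted p = 0.00931). In the window from 68 to 70 Mb, *si:ch211-209j12.3* had 35.9, 26.1 and 17.9 in *Tg(cmlc2:tfeb)* libraries, 3.32, 4.64 and 5.63 in *mtor* xu015/+ libraries, and 6.28, 6.89 and 4.36 in WT libraries, a log2 fold change of 2.175 ± 0.41 (adjusted p = 0.00549), while *si:ch211-209j12.1* of the same clone was among the leading losses given above. All 4 genes separated *Tg(cmlc2:tfeb)* from WT libraries without overlap. *si:ch211-209j12.3* would not have met the count minimum without its *Tg(cmlc2:tfeb)* libraries, so its fold, p and separation are not separate support. Towards the end of the arm, 1 of the genes named *zgc:172128* had 299, 224 and 317 in *Tg(cmlc2:tfeb)* libraries, 533, 465 and 435 in *mtor* xu015/+ libraries, and 407, 483 and 514 in WT libraries, and fell by 0.74 on the log2 scale (SE 0.15, adjusted p = 0.00743). A gene named *si:dkey-207m2.4* had 656, 604 and 556 in *Tg(cmlc2:tfeb)* libraries, 609.99, 400.4 and 469 in *mtor* xu015/+ libraries, and 299, 328 and 375 in WT libraries (log2 fold change 0.86 ± 0.15, adjusted p = 0.00468), and its *mtor* xu015/+ libraries lay above all WT libraries and overlapped the *Tg(cmlc2:tfeb)* libraries. With 1 library left out in turn, 4 of the 10 calls from 30 to 32 Mb, 4 of the 10 from 76 to 78 Mb and 5 of the 9 from 68 to 70 Mb held every time.

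**Figure D5:**
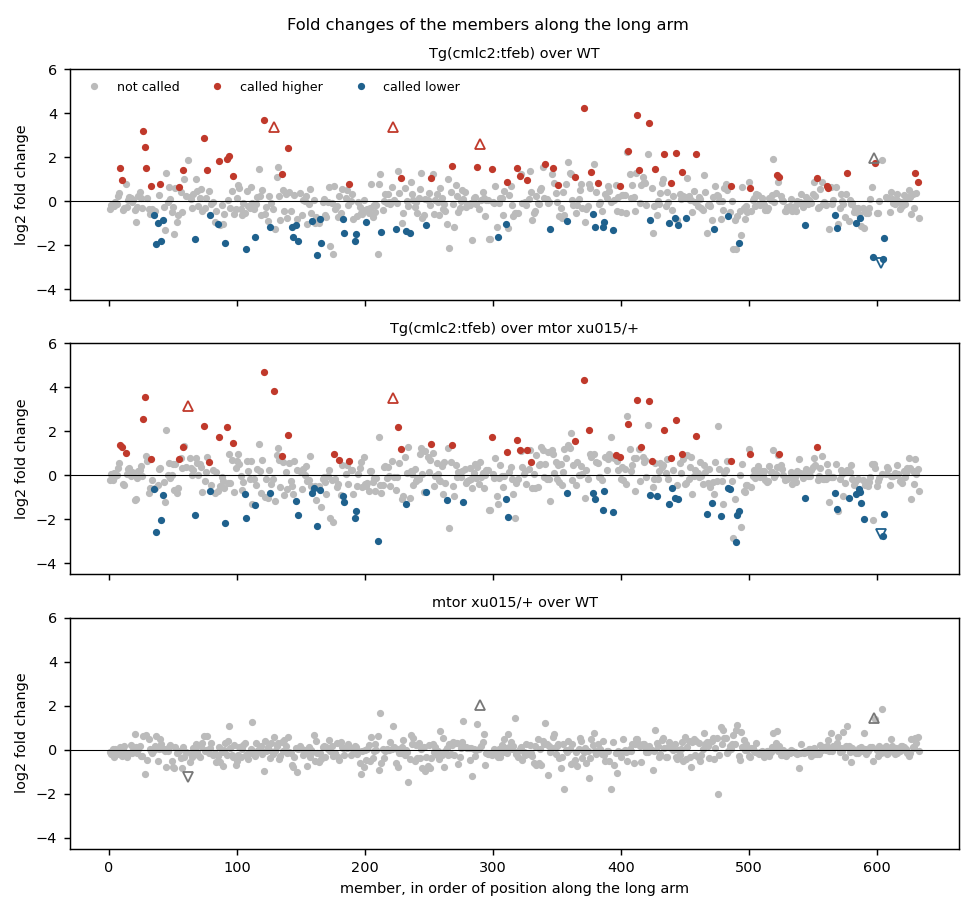
Log2 fold change (y axis) of each tested member in order of position along the long arm (x axis), for *Tg(cmlc2:tfeb)* over WT (top), *Tg(cmlc2:tfeb)* over *mtor* xu015/+ (middle) and *mtor* xu015/+ over WT (bottom), with called members in red (higher) or blue (lower) and others in grey. Open triangles mark members with at most 3 counts in every library of one group, drawn at their fold against a floor of 3 counts per library. Calls in both colours run along the whole arm in the upper panels, and the bottom panel holds none.

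Set against *mtor* xu015/+ rather than WT ventricles, *Tg(cmlc2:tfeb)* ventricles gave a like share of calls over all members, with directions that differed by name class. Of 629 members, 51 were called higher and 60 lower, together 17.6%, against 16.0% of all genes tested and 18.7% of the same classes elsewhere. The members called higher were 8.11%, against 8.09% of all genes, and those called lower 9.54%, against 7.95% of all genes. Among znf members 15 were called higher and 7 lower (15.8%), against 12 and 5 (10%) elsewhere. For si: members the counts were 23 higher and 41 lower (17.5%), against 160 and 165 (18.4%) elsewhere. Of zgc: members 1 was called higher and 6 lower (17.9%), against 34 and 46 (16%) elsewhere. For other dotted members they were 12 and 6 (20.9%), against 114 and 152 (21.4%). These differences were not tested. An unadjusted p under 0.05 was found for 221 members (35.1%; 37.5% of all genes), and 246 (39.1%; 41.8% of all genes) did not overlap between the groups. The median log2 fold change was 0.029, against 0.0048 over all genes, and it was -0.034 without the third *Tg(cmlc2:tfeb)* library and 0.073 without the first. Both comparisons use the same *Tg(cmlc2:tfeb)* libraries, so their calls are not independent: 40 members were called higher in both, which is 66.7% of those higher than WT and 78.4% of those higher than *mtor* xu015/+, 42 were called lower in both (75% and 70%), and 0 were called in opposite directions.

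Some members had a larger fold change against *mtor* xu015/+ than against WT. *znf1079* (chr4:62337473-62343217) had 45.3, 46.2 and 36.98 in *Tg(cmlc2:tfeb)* libraries, 7.74, 10.2 and 12.2 in *mtor* xu015/+ libraries, and 25.1, 26.4 and 22.9 in WT libraries, so that the *mtor* xu015/+ libraries lay lowest, with a log2 fold change for *Tg(cmlc2:tfeb)* over *mtor* xu015/+ of 2.07 ± 0.28 (SE, adjusted p = 0.000937), against 0.79 ± 0.26 over WT (adjusted p = 0.0541). *znf1082* (chr4:61715860-61720972) had 94.9, 95.8 and 106 in *Tg(cmlc2:tfeb)* libraries, 39.8, 34.4 and 25.4 in *mtor* xu015/+ libraries, and 41.9, 44.8 and 50.2 in WT libraries (log2 fold change 1.58 ± 0.21 over *mtor* xu015/+, adjusted p = 0.000856). *zgc:173615* (chr4:69078543-69242961) had 51.3, 55.7 and 59.4 in *Tg(cmlc2:tfeb)* libraries, 101, 109 and 127 in *mtor* xu015/+ libraries, and 102, 75.8 and 105 in WT libraries (log2 fold change -1.02 ± 0.18 over *mtor* xu015/+, adjusted p = 0.00373). The *Tg(cmlc2:tfeb)* libraries of these 3 genes did not overlap with those of either other group. *znf1082* and *zgc:173615* were called against WT as well. With 1 library left out in turn, their log2 fold changes over WT were 1.06 to 1.19 and -0.897 to -0.681. For *zgc:173615* the *mtor* xu015/+ and WT libraries overlapped (log2 fold change 0.252, edgeR adjusted p = 0.777). The count of lower calls against *mtor* xu015/+ dropped to 36 without the first *mtor* xu015/+ library and to 38 with a 2-fold threshold.

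Between *mtor* xu015/+ and WT ventricles no member was called by edgeR, against 0.0236% of all genes (5 of 21216). An unadjusted p under 0.05 was found for 40 members (6.36%; 7.86% of all genes), 16 of them higher and 24 lower, and 76 members (12.1%; 13.2% of all genes) did not overlap between the groups. DESeq2 called 1 member, *znf998*, which was higher in *mtor* xu015/+ (adjusted p = 0.00291), and limma-voom called 0. The median log2 fold change of the members was -0.030, against -0.00056 over all genes, with a median absolute value of 0.21, against 0.14. Beside *znf998*, the smallest unadjusted p was that of *znf1079*, with 7.74, 10.2 and 12.2 in *mtor* xu015/+ libraries and 25.1, 26.4 and 22.9 in WT libraries, a log2 fold change of -1.28 ± 0.28 (SE) and edgeR adjusted p = 0.381. Its groups did not overlap.

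Genes of heterochromatin and DNA methylation, the machinery that packs regions such as this arm, were called at a share near that of all genes. Of 42 genes of this kind that were tested, 4 were called higher and 1 lower in *Tg(cmlc2:tfeb)* against WT, and 6 higher and 1 lower against *mtor* xu015/+, that is 11.9% and 16.7% of the list beside 14.9% and 16.0% of all genes, with median log2 fold changes of 0.017 and 0.12. The higher ones against WT were *dnmt1*, the maintenance DNA methyltransferase (log2 fold change 1.31 ± 0.09 SE, edgeR adjusted p = 4.94e-05), *uhrf1*, which guides it to newly copied DNA (1.2 ± 0.17, 0.00129), *dnmt3ba*, a de novo methyltransferase (0.89 ± 0.24, 0.0283), and *hells*, a chromatin remodeller needed for DNA methylation (3.19 ± 0.88, 0.0294). The lower one was *mbd3b*, of a family of methyl-CpG binding domain proteins (-0.65 ± 0.12, 0.00442). Those not called against WT included *setdb1a*, a writer of histone H3 lysine 9 methylation (-0.088 ± 0.064, adjusted p = 0.36), and *cbx5*, a reader of it (0.097 ± 0.11, adjusted p = 0.56). The 8 proliferation markers were higher in the same libraries, and no link between this list and the members was tested.

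Some members were steady across all 9 libraries. *si:dkeyp-53e4.4* (chr4:43522680-43724976) had 940.4, 918 and 963 in *Tg(cmlc2:tfeb)* libraries, 943, 985 and 969.9 in *mtor* xu015/+ libraries, and 1027, 978 and 882 in WT libraries. The log2 fold change over WT was -0.03 ± 0.08 (SE). *znf1015* at chr4:73491106-73548437 had 1470.4, 1467 and 1375 in *Tg(cmlc2:tfeb)* libraries, 1287, 1267 and 1359.6 in *mtor* xu015/+ libraries, and 1298, 1301 and 1422 in WT libraries, a log2 fold change of 0.10 ± 0.07. *CU467646.7*, *zgc:171727* and *zgc:165515* varied as little, with log2 fold changes over WT of -0.064, 0.0095 and 0.046.

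At its edges the rule was sharp in position and close in counts. The first members on the arm, *si:ch73-263o4.4* (chr4:28356606-28373257), *znf1041* and *znf1067*, had log2 fold changes over WT of -0.34, -0.15 and -0.16, and the nearest clone-named gene before the boundary, *CR749777.1*, starts at position 27018663. For the members closest to the count minimum, the third highest library had 10.1 to 10.2 counts, and the genes just below it had 9.79 to 9.95. Of the 633 members, 4 did not pass the filter of the edgeR fit on low counts and were not tested: *si:dkey-247i3.1*, *si:ch211-142b24.8*, *si:dkey-179k24.5* and 1 of the genes named *znf1089*, all with at most 16.7 normalized counts in any library.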

How the data were processed

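RNA of dissected ventricles was sequenced as 50-bp read pairs. The authors deposited estimated counts per gene and library, not always whole numbers and not normalized between libraries. The submitters' processing notes name bcl2fastq (version 2.17), Trimmomatic (version 0.36), STAR (version 2.5.2b) and GRCz11, whereas the paper's methods describe alignment with TopHat and quantification with Cufflinks, and the step that made the table is not given in the sources used here. Column labels carry the suffix scaledTPM, and whether the values are abundances rescaled to library size was not settled.

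The whole table was rounded to integers and fitted in R (version 4.3.3). The filter filterByExpr kept 21216 genes, TMM factors were 0.946 to 1.08, and the 9 libraries entered a single fit without covariates in edgeR (version 4.0.16, quasi-likelihood test). Benjamini-Hochberg adjustment of two-sided p-values ran over all genes tested, and calls were made at 0.05 with a fold of 1.5 or more. Each standard error (SE) was derived from the test, as the absolute log2 fold change divided by the square root of its F statistic. The fitting script was tested on simulated data. Members and gene lists were chosen with earlier results of these data known. Members are named by rule: the 8 called members with the smallest p in each direction and no overlap between groups, members near 0 in one group, the 5 highest and the 5 steadiest, called znf members, and called members of the largest clone groups and of the 3 windows with the most calls. The paper's methods call the replicates of a genotype biological replicates, each a pool of 5 ventricles. Alternatives were DESeq2 (version 1.42.0), limma-voom (limma version 3.58.1), other scaling, filters and thresholds, a boundary at 30 Mb, the replicate number as a block, fits limited to the groups compared, and each library left out. Comparisons share libraries. Counts of zinc finger motifs in the proteins were not made here.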

Additional observations from a re-analysis of the deposited data

How the results depend on the processing

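Under DESeq2, limma-voom, other scalings, filters and thresholds, the 30 Mb boundary and a fit of only the groups compared, 44 to 67 members were called higher and 38 to 63 lower in *Tg(cmlc2:tfeb)* against WT, and 34 to 60 higher and 38 to 67 lower against *mtor* xu015/+, with the 38 lower calls against *mtor* xu015/+ at a 2-fold threshold. DESeq2 called 1 member higher in *mtor* xu015/+ than in WT, where edgeR called 0. With 1 library left out in turn, calls against WT were 41 to 51 higher and 33 to 41 lower, with medians of -0.0898 to -0.00827, and calls against *mtor* xu015/+ were 42 to 50 higher and 36 to 54 lower, with medians of -0.0339 to 0.0729. Between *mtor* xu015/+ and WT these fits called 0 members, with medians of -0.051 to -0.0096. Fits with a library left out hold fewer samples. Counting sets of identical genes once, an alternative chosen after seeing the data, left 60 higher and 56 lower calls against WT and 51 and 60 against *mtor* xu015/+. No member identical to another member was called, so these counts could not change and are no check on the calls. *BX539310.1*, called lower and identical to a gene outside the members, stayed counted. For the named members, the 1931 values under the alternatives of those called kept their direction, whereas 71 of the 1575 values of those not called had the opposite sign, in 35 of 99 results. Of all 3506 values, 3249 kept their side of the threshold, 241 lost a call and 16 gained 1.

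The groups share replicate numbers in the labels. Correlations of the deviations from group means were -0.0239 to 0.0889 between libraries with the same number. Between libraries with different numbers they were -0.119 to 0.0542. With 3 libraries per group, these values cannot decide whether the numbers pair the samples. With the replicate number as a block, 54 members were called higher and 45 lower against WT, and 47 higher and 54 lower against *mtor* xu015/+. Depth limits the lowest members most: the 220 tested members under 30 normalized counts had a median coefficient of variation within groups of 34.8%, against 15.3% for the 68 above 300.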

Other observations

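Few genes of the arm lay outside the clone-named classes. Of the 41 protein-coding genes with other names that reached the count minimum on the long arm, 4 were called higher and 1 lower in *Tg(cmlc2:tfeb)* against WT ventricles (12.2%), with a median log2 fold change of 0.10. On chromosome 4 up to 28 Mb, 57 genes of the same name classes were tested, of which 5 were called higher and 4 lower (15.8%), with a median of -0.13. Against *mtor* xu015/+ ventricles these counts were 3 higher and 3 lower of 41 (14.6%), and 6 higher and 6 lower of 57 (21.1%). The differences between these sets and the members were not tested.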
